A study of Zea mays with 10 samples.

Results

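COR413-TM1 (LOC542100) and dhn2 (LOC542251) are maize genes named for responses to cold and to loss of water. Each was represented by 1 array element for which the platform annotation gave exactly 1 gene, element 6062 for COR413-TM1 and element 1328 for dhn2, so these were 2 of 19200 elements and 2 of 583 named genes. The genes were chosen by their ratio of weedy over control leaf on the same arrays, with that result known. Their values in this contrast are therefore a description and carry no test. The annotation was used for names only, and the files gave no genome coordinates.

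Dehydrins are very hydrophilic proteins that accumulate in drying seeds and in leaves under drought, salt or cold, often through abscisic acid, and are thought to shield membranes and proteins as water is lost. Proteins of the COR413 family span membranes several times. In Arabidopsis, some members sit in the plasma membrane and others in the inner envelope of the chloroplast, and their transcripts rise in the cold. A leaf that runs short of water closes its stomata under abscisic acid and switches on dehydrins and related genes through transcription factors that bind drought-responsive and abscisic acid-responsive promoter elements.

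The study asked how competition from velvetleaf, a broadleaf weed, altered gene expression in maize leaves. The weedy group came from 4 field plots into which velvetleaf had been sown, and the control group from 4 plots weeded by hand through the season. Both groups grew in the field without added water or fertilizer, and leaf from 4 plants per plot was pooled and frozen at harvest. Each of 10 arrays set 1 weedy pool against 1 control pool, with weedy leaf labelled with Cy5 on 5 arrays and control leaf on the other 5. The labels give no genotype, plant age or sampling date for either group. The log ratios hold no expression level, so the leaf identity of the RNA could not be checked against marker genes, and fewer cells of a type cannot be told apart from less RNA per cell.

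Values are the deposited log ratios, read as log2, after the median of each array was removed. Neither the log base nor the numerator was stated. A ratio is called turned when its sign is set so that a positive value stands for more transcript in weedy leaf on the assumption that Cy5 was divided by Cy3; with Cy3 divided by Cy5, all signs swap. A further possibility is that the depositors had already made each array a weedy over control ratio, in which case the mean of the values as deposited is the weedy effect. Elements with a value numbered 9965 to 17383 per array, and the SD of the ratios within an array was 0.31 to 0.59. One array of each dye orientation had far fewer values than its partners, and both genes had a value on all 10 arrays.

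COR413-TM1 had ratios below 0 on all 5 arrays with weedy leaf in Cy5 and above 0 on all 5 arrays with control leaf in Cy5. With weedy leaf in Cy5, the ratio was -0.72 for weedy plot 2 against control plot 1, -0.30 for weedy plot 3 against control plot 2, -0.29 for weedy plot 4 against control plot 3, -0.01 for weedy plot 1 against control plot 4 and -0.13 for weedy plot 4 against control plot 4. With control leaf in Cy5, the ratio was 0.11 for weedy plot 1 against control plot 2, 0.08 for weedy plot 1 against control plot 3, 0.19 for weedy plot 2 against control plot 4, 0.07 for weedy plot 3 against control plot 1 and 0.36 for weedy plot 3 against control plot 4. The orientations did not overlap, and 1 array with weedy leaf in Cy5, at -0.01, lay almost at 0. The mean was -0.29 ± 0.27 with weedy leaf in Cy5 and 0.16 ± 0.12 with control leaf in Cy5 (SD, n = 5 arrays each).

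The turned ratio of COR413-TM1 was thus negative on 10 of 10 arrays, from -0.72 to -0.01 with a median of -0.16. Among the 9486 elements with a value on all arrays, 0.685% were negative on every array in the same sense, and 1.74% had all arrays with weedy leaf in Cy5 below all with control leaf in Cy5. Because the gene was chosen on this contrast, nothing is read from these shares. The fit, with a treatment term, a dye term and the plots as a random effect, gave a turned ratio of -0.23 (SE 0.09). With 1 fitted value per plot as the unit, the ratio was -0.26 (SE 0.14). On the Cy5 over Cy3 reading, the ratio of -0.23 places COR413-TM1 in weedy leaf at 0.853 of its level in control leaf in base 2. With natural logs it is at 0.796. If the values had been turned before deposit, the weedy effect was -0.06 (SE 0.08), smaller than its error. In size the fitted ratio exceeded that of 84.4% of the 16201 elements tested, whose median size was 0.104.

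dhn2 had no common sign in either orientation. With weedy leaf in Cy5, its ratio was 0.06 for weedy plot 2 against control plot 1, -0.36 for weedy plot 3 against control plot 2, 0.48 for weedy plot 4 against control plot 3, 0.07 for weedy plot 1 against control plot 4 and -0.69 for weedy plot 4 against control plot 4. With control leaf in Cy5, it was 0.30 for weedy plot 1 against control plot 2, -0.44 for weedy plot 1 against control plot 3, 0.02 for weedy plot 2 against control plot 4, -0.08 for weedy plot 3 against control plot 1 and -0.40 for weedy plot 3 against control plot 4. The highest and the lowest value, 0.48 and -0.69, came from the same weedy pool, that of plot 4, set against different control pools. The arrays with weedy leaf in Cy5 spanned the whole range of those with control leaf in Cy5, with a mean of -0.09 ± 0.45 with weedy leaf in Cy5 and -0.12 ± 0.30 with control leaf in Cy5 (SD, n = 5 arrays each).

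Turned, dhn2 was positive on 6 and negative on 4 of the 10 arrays, from -0.69 to 0.48 with a median of 0.07. The fitted turned ratio was 0.02 (SE 0.12), with a 95% interval from -0.24 to 0.27. In base 2 that interval runs from 0.849 to 1.21 times the control level, given as the error of the estimate and not as a test. With 1 fitted value per plot as the unit, the ratio was -0.0013 (SE 0.24), so the interval above is too narrow for the spread between plots. If the values had been turned before deposit, the ratio was -0.10 (SE 0.11). The SD of the turned ratios over the 10 arrays was 0.377 for dhn2, above that of 66.9% of the elements with all arrays, and 0.205 for COR413-TM1, above that of 12.7% of them.

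**Figure D1:**
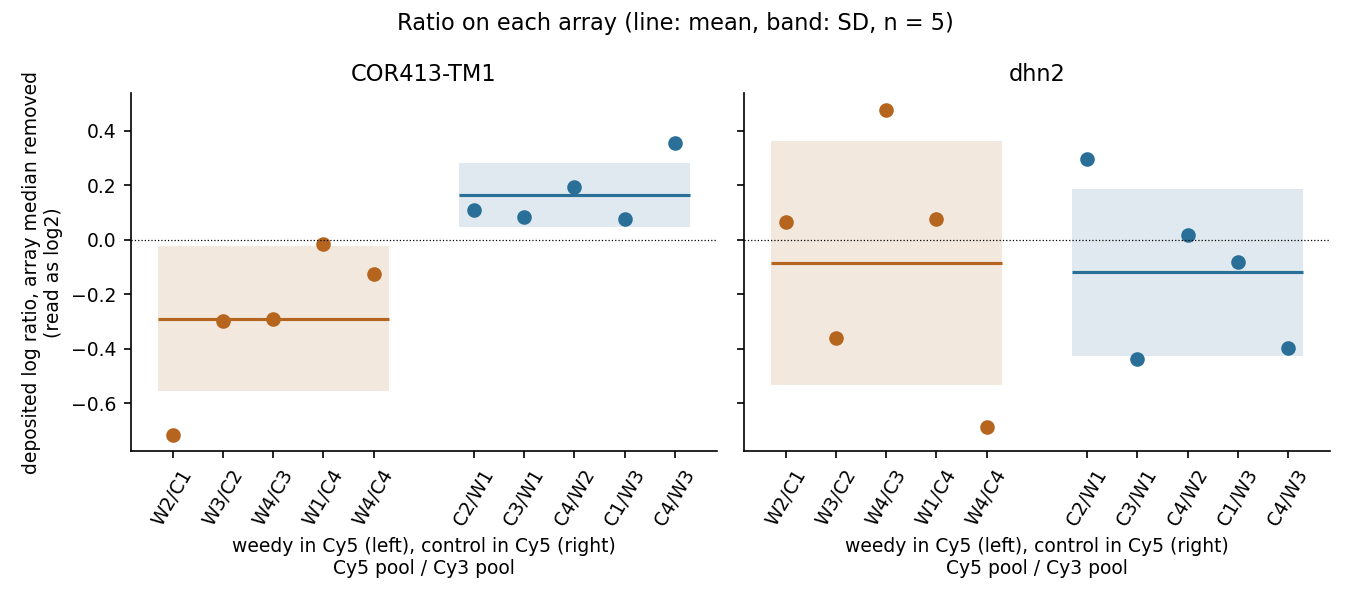
Log ratio of COR413-TM1 (left panel) and dhn2 (right panel) on each array after the array median was removed, by dye orientation; W and C with a number are weedy and control plot pools, lines are means and bands 1 SD over 5 arrays. COR413-TM1 sits below 0 on all arrays with weedy leaf in Cy5 and above 0 on all with control leaf in Cy5, while dhn2 spans 0 in both.

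In the whole table, 0.0123% of the 16201 elements tested differed between weedy and control leaf at an adjusted p of 0.05 (limma, Benjamini-Hochberg), and 12.1% had an unadjusted p under 0.05. That fit's dye term, a measure of any difference between Cy5 and Cy3 that does not follow the treatment, was not used to choose the genes. It was -0.06 (SE 0.08, adjusted p = 0.809, limma) for COR413-TM1 and -0.10 (SE 0.11, adjusted p = 0.776, limma) for dhn2. Neither passed; over all elements 0% passed for this term in limma and 9.49% had an unadjusted p under 0.05. Had the depositors already turned the arrays, this term would be the weedy effect.

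Each pool was used on 2 to 4 arrays, so each gene could also be followed by pool. For COR413-TM1, with Cy5 taken as numerator, each of the 4 weedy pools was below its partner on every array it was on. Weedy plot 2 had the lowest mean ratio over its partners, -0.45 on 2 arrays, and weedy plot 1 the highest of the weedy pools, -0.07 on 3 arrays. Among control pools, plot 1 had a mean of 0.40 over its partners on 2 arrays, and plots 2, 3 and 4 had means of 0.20, 0.19 and 0.17. The highest weedy and lowest control means rest on the same array in part, since weedy plot 1 and control plot 4 were set against each other.

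When a level was fitted for each pool from all arrays together, COR413-TM1 stood at 0.03, -0.37, -0.16 and -0.02 in weedy plots 1 to 4 and at 0.13, 0.14, 0.20 and 0.04 in control plots 1 to 4, relative to the mean of all pools. The 4 weedy pools lay below the 4 control pools, though weedy plot 1 and control plot 4 were only about 0.01 apart. Of the 16079 elements with a level for every pool, 0.684% had all weedy pools below all control pools, from which nothing is read for a gene chosen on this contrast. The weedy pools averaged -0.13 ± 0.18 and the control pools 0.13 ± 0.06 (SD, n = 4 pools each). The array residuals around these levels had an SD of 0.254 on 2 degrees of freedom, near the middle of all elements, of which 52.8% had a lower one. This residual SD was close in size to the gap of -0.26 between the means of the weedy and the control pools.

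The pool levels of dhn2 differed more within a treatment than between treatments. Control plot 2 was above its partner on both of its arrays, at 0.30 and 0.36, and control plot 3 was below its partner on both of its arrays, at -0.44 and -0.48. Each of these pools was in Cy5 on 1 array and in Cy3 on the other, and on the Cy5 over Cy3 reading it kept its sign. The residual SD of the arrays around the pool levels was 0.365 on 2 degrees of freedom. The part of pool, dye and array noise in these signs was not tested. Control plot 1 was also below its partner on both arrays, at -0.06 and -0.08. Control plot 4 was above its partner on 2 and below it on 2 of its 4 arrays, from -0.40 to 0.69.

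No weedy pool kept 1 sign for dhn2 over all its arrays. The fitted levels were 0.04, 0.11, 0.25 and -0.40 in weedy plots 1 to 4 and 0.11, 0.48, -0.64 and 0.06 in control plots 1 to 4. The weedy pools averaged -0.00065 ± 0.28 and the control pools 0.00065 ± 0.47 (SD, n = 4 pools each). The range over the control pools was 1.11 for dhn2, wider than for 90.8% of elements, and 0.153 for COR413-TM1, wider than for 3.17%. The residual SD of the arrays around the pool levels was 0.365 for dhn2, and 73.0% of elements had a lower one. Had the depositors turned the arrays, the paired values of control plots 2 and 3 would have opposite signs within each pool.

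**Figure D2:**
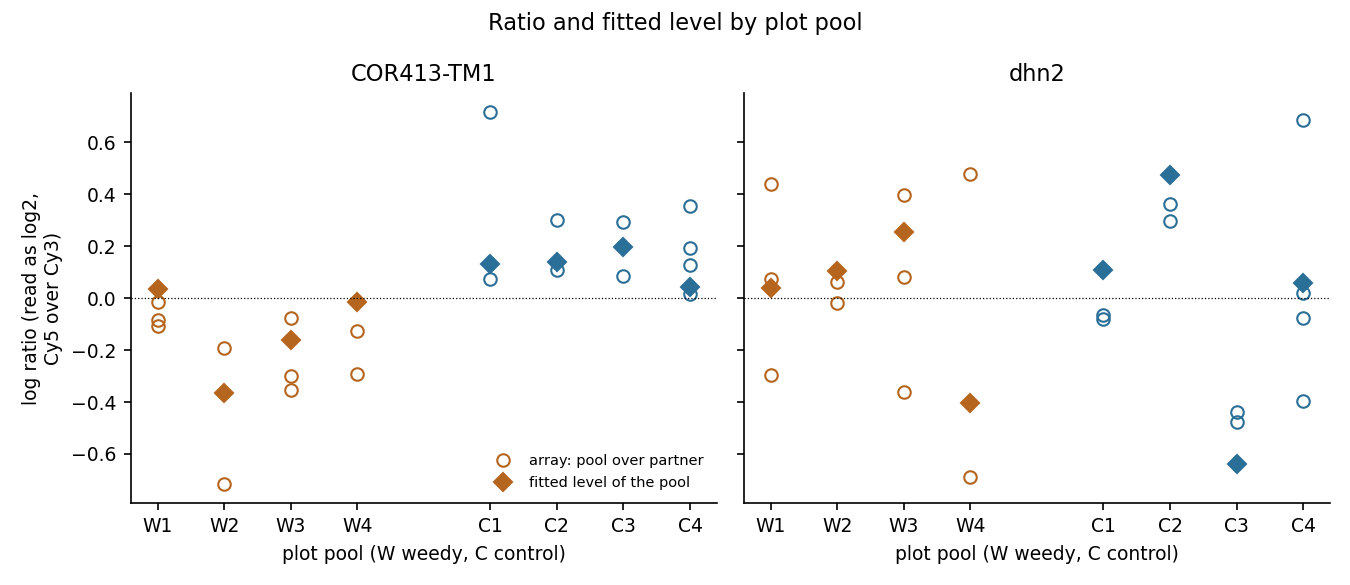
Ratio of each plot pool over its partner on each array (open circles) and level of the pool fitted over all arrays (diamonds) for COR413-TM1 and dhn2, with weedy pools W1 to W4 left and control pools C1 to C4 right. On an array the 2 pools have the same value with opposite sign; for COR413-TM1 the weedy pool is the one below 0 on all arrays, and the fitted level of dhn2 is highest in control plot 2 and lowest in control plot 3.

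Position on the slide was examined because values of consecutive elements correlated at 0.242 within an array. The table order repeated every 20 elements and in sets of 400, from which a grid of blocks was inferred. The 8 elements around COR413-TM1 had fitted turned ratios from -0.25 to 0.44 with a median of 0.0033, and 4 of the 8 were negative. Of the 356 other elements tested in its block, 1.97% had a lower ratio than COR413-TM1, and their median was 0.05. Over all elements tested the share was 5.87%. Nothing is read from either rank, since the gene was chosen on this contrast. After the median of the 8 adjacent elements was subtracted on each array, COR413-TM1 stood at -0.20 (SE 0.10) and was negative on 7 of 10 arrays instead of 10. After row and column medians were removed it stood at -0.27 (SE 0.07), negative on 10 of 10 arrays. The part of slide position in either gene's ratio was not tested further.

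Around dhn2, the 8 adjacent elements had fitted turned ratios from -0.26 to 0.15, also with 4 of 8 negative, and the median of its block was 0.07. After subtraction of the adjacent median dhn2 stood at 0.10 (SE 0.13), positive on 5 of 10 arrays.

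The deposited ratios of COR413-TM1 and dhn2 did not follow each other over the 10 arrays, with a Pearson r of -0.20 and a Spearman rho of -0.16, given as a description because the arrays share pools. Of 393 other genes with a value on all arrays, those whose ratios were most like COR413-TM1 were gpt (LOC542599, r = 0.85), IIG1 (LOC542597, r = 0.79) and tb1 (r = 0.78), a transcription factor that represses branching. Their fitted turned ratios were -0.29 (SE 0.09), -0.16 (SE 0.13) and -0.22 (SE 0.10). The gene least like it was the aquaporin PIP2-6 (LOC541891, r = -0.87), a water channel of the plasma membrane, at 0.31 (SE 0.07). These likenesses include the treatment pattern on which COR413-TM1 was chosen.

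For dhn2, the most alike were tua3 (LOC542395, r = 0.91), an alpha tubulin, rf2b (LOC542567, r = 0.89), an aldehyde dehydrogenase, and rpp1a (LOC542719, r = 0.88), an acidic protein of the ribosome. The least alike was LOC542193 (r = -0.86). The 3 most alike had fitted turned ratios of 0.05 (SE 0.06), -0.03 (SE 0.07) and -0.0071 (SE 0.07), all within their error of 0. Of the 393 genes, 12.2% had an r above 0.5 with dhn2 and 9.92% with COR413-TM1, so high values were common over 10 arrays that share pools.

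Other genes of water and cold stress were sought by name, and 8 besides COR413-TM1 and dhn2 were found and tested. No other dehydrin was matched by name among the named elements. Of the 8, 0 passed in either direction over all 540 genes (limma), against 0% of all genes, and 0 had an unadjusted p under 0.05, against 11.5% of all genes. Their turned ratios ran from -0.04 to 0.14 with a median of 0.09, and 6 of 8 were positive. Over all genes the median was 0.02 and 56.7% were positive. The 2 negative genes, abp1 and abp4, matched by their letters only, as did ADF3. Without these, the ratios ran from 0.0068 to 0.14, and nothing is read from that common sign. Among those left, SnrK1 was negative in 11 of 22 other processing settings. PP2C, dbf1 and DREB2A were each negative in 1 of 32, and lip15 in 0 of 32.

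Of these genes, 5 bear directly or through their family on cold, drought or abscisic acid. lip15 (LOC542700), a bZIP transcription factor of maize induced by low temperature, was at 0.14 (SE 0.09, adjusted p = 0.577, limma), from -0.28 to 0.46 on single arrays and positive on 7 of 10. DREB2A (LOC732788), a transcription factor of the family that binds the drought-responsive promoter element, was at 0.11 (SE 0.10), and positive on 7 of 10 arrays. dbf1 (LOC542569), a related factor first described as a binding protein of a maize dehydrin promoter, was at 0.10 (SE 0.07), positive on 6 of 10, with its 2 elements at 0.24 and 0.02.

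PP2C (LOC542176), named for a phosphatase family of which some members in Arabidopsis hold abscisic acid signalling in check, was at 0.09 (SE 0.07), positive on 5 of 10 arrays. SnrK1 (LOC542687), a kinase that senses low energy, was at 0.0068 (SE 0.15), from -0.95 to 0.53 on 9 arrays. None of these 5 passed, and on every one of them the lowest and the highest array lay on opposite sides of 0.

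The other 3 matched by their letters only and have other roles. ADF3 (LOC542445), listed through its synonym ABP3, is an actin depolymerising factor and was at 0.12 (SE 0.10). Its fitted elements ranged from -0.24 to 0.38. abp1 (LOC542232) and abp4 (LOC542294) are auxin-binding proteins and were at -0.04 (SE 0.06) and -0.04 (SE 0.11). The elements of abp1 ranged from -0.21 to 0.25, a spread between elements of 1 gene that reached about the size of the COR413-TM1 ratio on either side of 0. COR413-TM1 and dhn2 each rested on 1 element, so no such check of agreement between elements could be made for them.

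**Figure D3:**
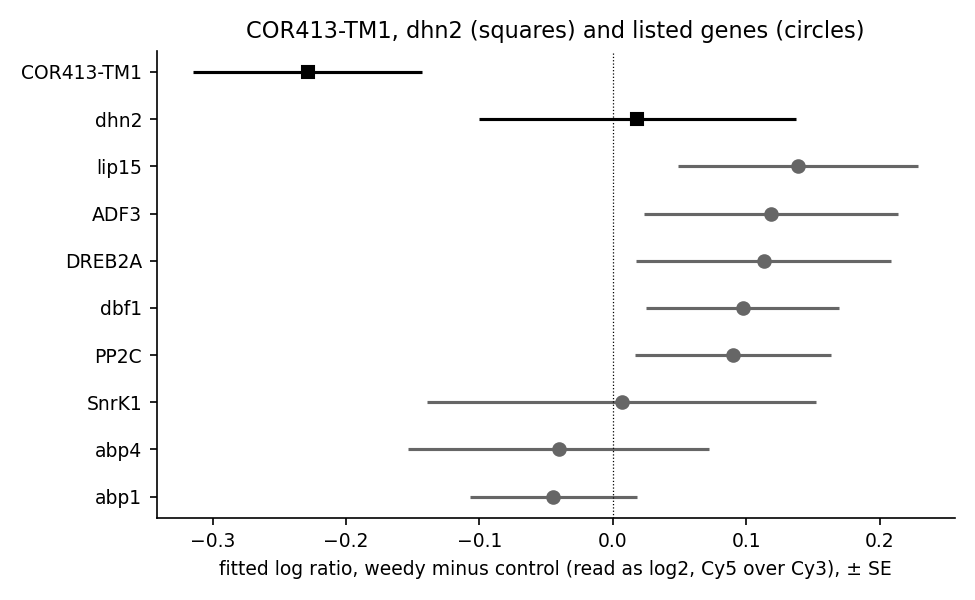
Fitted turned log ratio, weedy minus control, with SE, of COR413-TM1 and dhn2 (squares, fitted among all elements) and of the 8 other listed genes (circles, means of their elements, fitted among all genes). COR413-TM1 is at -0.23, dhn2 at 0.02 and the 8 others between -0.04 and 0.14.

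The fitted ratio of COR413-TM1 was negative in 33 of 33 other processing settings, from -0.28 to -0.06. This sign was largely fixed in advance, since the gene was chosen on this contrast and was negative on 10 of 10 arrays. Some settings also left its value unchanged, so nothing is read from the count. The ratio of dhn2 was negative in 12 and positive in 21, from -0.10 to 0.11. The value of COR413-TM1 nearest 0 was that with the arrays read as turned before deposit. With 2 arrays, those of control plot 4 labelled with Cy5, reversed in sign, it was -0.13 (SE 0.10). Without weedy plot 2, the pool of the lowest ratio, it was -0.17 (SE 0.08). For dhn2, the ratio was -0.09 (SE 0.11) without control plot 3 and 0.11 (SE 0.13) without control plot 2, the pools with its lowest and highest level.

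**Figure D4:**
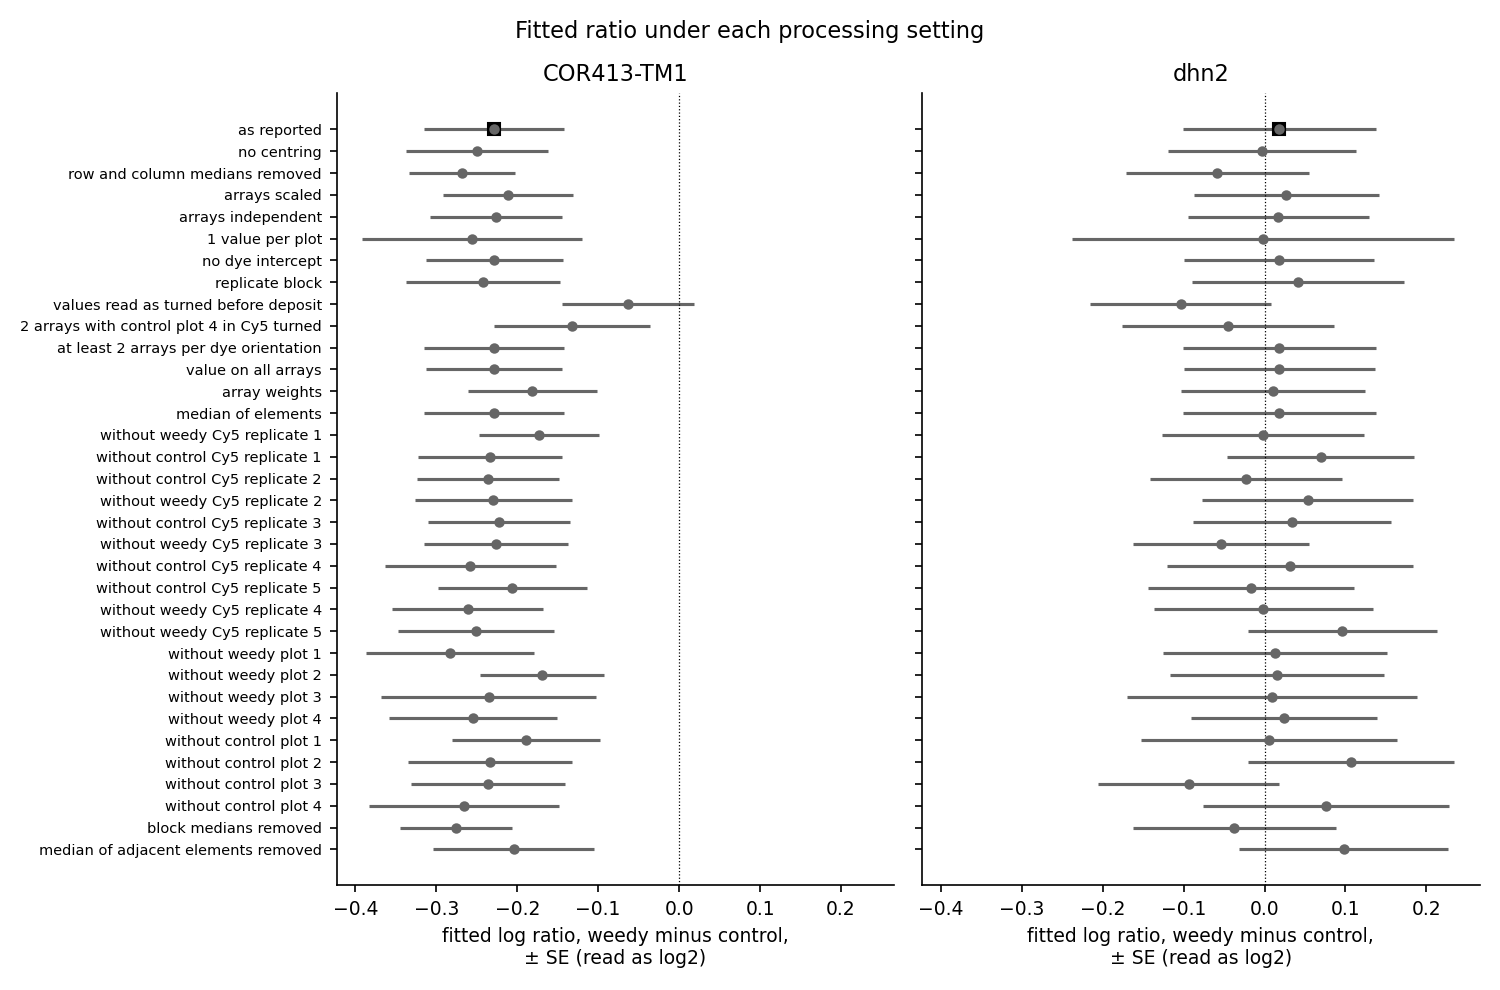
Fitted turned log ratio, weedy minus control, with SE, of COR413-TM1 (left panel) and dhn2 (right panel) as reported (black square) and under each other processing setting (grey circles). The fitted values of COR413-TM1 are all below 0, the nearest at -0.06 (SE 0.08) with the values read as turned before deposit, while dhn2 lies on both sides of 0.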

How the data were processed

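Leaf RNA from 8 field plots was labelled from 30 ug of total RNA and hybridised on 10 2-colour arrays, per the labels. The deposited values were 1 log ratio per element and array, treated as log2; log base, direction and any scanner, background or filter setting were not given in the sources used here. The largest value was 7.64 in size. No signal was used, and the number of arrays limits the precision.

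Arrays were centred on their medians. The 16201 elements with values on 4 or more arrays per dye orientation were fitted by generalised least squares, with terms for treatment and dye. The plots were a random effect (ratio of plot to array variance 0.0347, by restricted likelihood). Variances were moderated with limma 3.58.1 in R 4.3.3, and p-values were adjusted by the Benjamini-Hochberg method over all elements, or over 540 genes as means of their elements. The fit was checked only on data simulated from the same model, with independent elements and the same plot ratio for all of them. That check cannot show whether the model holds for these arrays. Pool levels were fitted by least squares with a dye term.

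Of 583 named genes, 562 were found by gene identifier in RefSeq's gene table (Zm-B73-REFERENCE-NAM-5.0). A further 17377 elements are unnamed here. The genes and lists were chosen with earlier results of these data known. Named genes were both chosen genes, up to 8 stress genes matched by name, and the 3 most and 1 least correlated genes for each. Pools came from separate plots but recurred on several arrays, and 1 small ratio of plot to array variance (0.0347) served all elements. The p-values and SEs therefore measure mainly the spread between arrays. They can understate the spread between plots. For COR413-TM1 the SE was 0.09, against 0.14 with 1 value per plot, and for dhn2 it was 0.12, against 0.24. Alternatives covered centring, scaling, plot dependence, the dye term, direction, filters, array weights and left-out arrays and plots.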

Additional observations from a re-analysis of the deposited data

Results flagged for a closer look

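The 2 results singled out both concern missing values, as an array far from the others of its dye orientation. Array 3 with weedy leaf in Cy5 had 13747 elements with a value, against 17228 to 17383 on the other 4. Array 5 with control leaf in Cy5 had 9965, against 16233 to 17374 on the other 4. They came from 22 checks over both orientations, which covered both genes and the 8 listed ones, and chance gives about 1 in 20 per check. COR413-TM1 and dhn2 had values on both arrays, and without the first they stood at -0.23 and -0.05, and without the second at -0.21 and -0.02.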

How the results depend on the processing

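The ratio of COR413-TM1 lay between -0.26 and -0.17 with 1 array left out and between -0.28 and -0.17 with 1 plot left out, the value nearest 0 in each case without weedy plot 2 or its array against control plot 1. That of dhn2 lay between -0.05 and 0.10, and between -0.09 and 0.11. With the values read as turned before deposit COR413-TM1 was at -0.06 (SE 0.08), against -0.23 (SE 0.09) as reported, and dhn2 at -0.10 (SE 0.11). Under each alternative 0 listed genes passed. The number of elements past the threshold was 2 as reported, 0 with 1 value per plot, with the values read as turned or with 2 arrays turned, 6 with array weights, and 0 to 4 with an array or plot left out. With plot numbers taken as a replicate block, the ratios were -0.24 for COR413-TM1 and 0.04 for dhn2. The labels do not say that plots of one number lay together. The pool levels of same-numbered plots correlated from -0.52 to 0.13 over elements, with 0 of 4 weedy plots closest to their own number. These correlations cannot decide the matter, since pools set on the same array share its noise. Removal of block medians (-0.28 and -0.04) and of the median of adjacent elements was chosen after seeing the data. Without signal values, a filter on dim spots could not be run.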
